A study of Bos taurus and Cervus elaphus with 24 samples.

Results

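Blood RNA of deer was compared with blood RNA of cattle over 2 physiological states, with all 8 deer arrays set against all 16 cattle arrays, which together are the 24 arrays of the series. The deer were 4 red deer (Cervus elaphus), and the cattle were 4 Holstein-Friesian (HF) and 4 Polish Red (PR) animals. Every animal was bled once while dry, when it gave no milk, and once at the peak of lactation, so that each of the 6 groups (HF dry, HF lactation, PR dry, PR lactation, deer dry, deer lactation) holds 4 arrays. The labels give no age and name no treatment. Blood was collected in RNA-fixing tubes, and the samples are labelled as peripheral blood nuclear cells. On every array Cy5 carried the RNA of an animal and Cy3 a reference pool of 20 cattle from outside the groups. A level is therefore a log2 ratio of Cy5 over Cy3, and the deer minus cattle contrast is the mean of the 2 deer groups minus the mean of the 4 cattle groups. A contrast of 1 on this scale is a 2-fold difference in corrected signal. That signal includes an offset of 50 in both channels, which shrinks the contrasts of dim probes. The probes tested were 29736 of 43653, namely those with a Cy5 signal well above background on at least 6 of 8 deer and 12 of 16 cattle arrays. Genes were taken up where at least 3 of their probes were tested, which left 3127 of the 16260 gene names on the array.

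The array carries probes of 60 bases written from cattle sequence. A probe of this length binds its transcript less well when bases differ between them, so a probe read with RNA of another species measures abundance and sequence match together. Probes on the same transcript share its abundance, while each has its own match to the deer transcript. Probes under the same gene name can also lie on different transcripts, and exons were not assigned here. Blood holds neutrophils, monocytes and lymphocytes of the immune system, together with red cells that carry haemoglobin and platelets that start clotting. The deer arrays lay on 3 slides and the cattle arrays on 7 others, and no slide and no scan day held both species. Species, slide and scan day cannot be told apart in this design, and for any one probe neither can expression and sequence mismatch.

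Over the tested probes, the Pearson correlation between log ratios ran from 0.89 to 0.97 between deer arrays, from -0.27 to 0.71 between cattle arrays and from -0.05 to 0.25 between the species. All deer arrays share the difference between deer RNA and the cattle reference, so these correlations do not compare how much animals of a species vary. The SD of log ratios was 0.62 to 0.96 on deer arrays and 0.21 to 0.50 on cattle arrays. Probes above background numbered 31646 to 34688 on deer arrays and 30825 to 42941 on cattle arrays. The median Cy5 intensity was 122 to 146 on deer arrays and 109 to 2038 on cattle arrays, where PR dry replicate 1 gave the highest value. The number of arrays limits the precision of each value, and no tested probe was saturated on all arrays of a species. Of the 20 markers of blood cells, 19 had a probe above background on every deer and cattle array, and KLRD1, a natural killer receptor, on 6 of 8 deer arrays. HBB (red cells) had a median log2 Cy5 signal of 12.3 in deer and 14.6 in cattle on its probe. The milk casein gene CSN2 stood at 12.4 in both species on its brightest probe, so a bright probe of this set did not check the tissue.

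The mitochondrial genome gave the lowest deer readings as a class. It encodes subunits of the respiratory chain and the RNAs of the mitochondrial ribosome. Of its 52 probes 45 were tested, and 43 of these were lower in deer and 0 higher (limma, Benjamini-Hochberg adjusted p under 0.05), where 33.6% of all tested probes were lower and 31.3% higher. The median contrast was -3.08, with a range from -8.99 to -0.08. The same 45 probes had a median of -0.00 between HF and PR, with a range from -0.51 to 0.33. Probes written on the minus strand lay between -1.77 and -0.08 and those on the plus strand between -8.99 and -0.25. The autosomal probes had a median of 0.01 and the probes of the X chromosome 0.03. The following probes are shown because they overlap, in part or nearly in full, on a mitochondrial transcript and yet differ in the deer. Each is written 5′ to 3′ with its place on UMD 3.1, plus strand, and capitals mark the longest run of bases shared with the overlapping probe of that gene.
COX3 at chrM:9503-9562: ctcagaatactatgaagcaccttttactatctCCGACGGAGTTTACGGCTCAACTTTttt
COX3 at chrM:9500-9559: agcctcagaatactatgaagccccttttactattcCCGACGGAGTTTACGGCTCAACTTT
COX2 at chrM:7954-8013: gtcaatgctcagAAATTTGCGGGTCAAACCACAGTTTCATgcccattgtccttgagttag
COX2 at chrM:7966-8025: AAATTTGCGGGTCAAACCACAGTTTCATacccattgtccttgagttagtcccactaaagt
ND1 at chrM:3951-4010: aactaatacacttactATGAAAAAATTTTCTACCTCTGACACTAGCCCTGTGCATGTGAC
ND1 at chrM:3967-4026: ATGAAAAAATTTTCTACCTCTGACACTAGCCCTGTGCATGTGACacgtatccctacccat
CYTB at chrM:15444-15503: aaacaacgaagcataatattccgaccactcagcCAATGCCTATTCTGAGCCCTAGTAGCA
CYTB at chrM:15477-15536: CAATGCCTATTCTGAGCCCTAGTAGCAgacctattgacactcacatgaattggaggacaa

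The COX3 probes, for a subunit of cytochrome c oxidase, overlap by 57 bases and differ at 3 positions. Counted from 1 at the 5′ end of the probe at 9503, the changes to the probe at 9500 are A19C, C31T and T32C. On the first of them the deer arrays ran from -1.98 to -1.06 around a median of -1.23, and the cattle arrays from -0.85 to 0.61 around 0.06. Deer and cattle did not overlap on this probe, and its contrast was -1.41 (SE 0.13, limma adjusted p = 3.07e-09). On the probe at 9500 the deer ran from -0.79 to 0.07 around -0.11 and the cattle from -0.83 to 0.60 around 0.07. Here the ranges overlapped, and the contrast of -0.25 did not pass (SE 0.12, limma adjusted p = 0.0683). In cattle the 2 probes gave nearly the same range, so the readings parted in deer. The other COX3 probe, at 9671 to 9730, stood at -0.89.

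The COX2 probes differ by 1 base, G41A counted from the 5′ end of the probe at 7954, and read -3.72 and -4.26. Another probe of COX2, at 7740 to 7799, read -6.85. COX2 encodes another subunit of cytochrome c oxidase. The ND1 probes have identical letters over their overlap of 44 bases and read -5.07 and -5.67, beside -4.62 for the other ND1 probe. ND1 is a core subunit of respiratory complex I. The CYTB probes share 27 identical bases at their ends and read -1.85 and -3.93, while the other 3 CYTB probes lay between -1.45 and -1.04. CYTB is the only subunit of complex III that mitochondria encode. ATP6, of the ATP synthase, read -2.29, -3.08 and -5.16. Every probe of ND1, COX2, ATP6 and CYTB passed as lower in deer, but within COX2, ATP6 and CYTB the readings differed by more than 2 on the log2 scale.

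**Figure D1:**
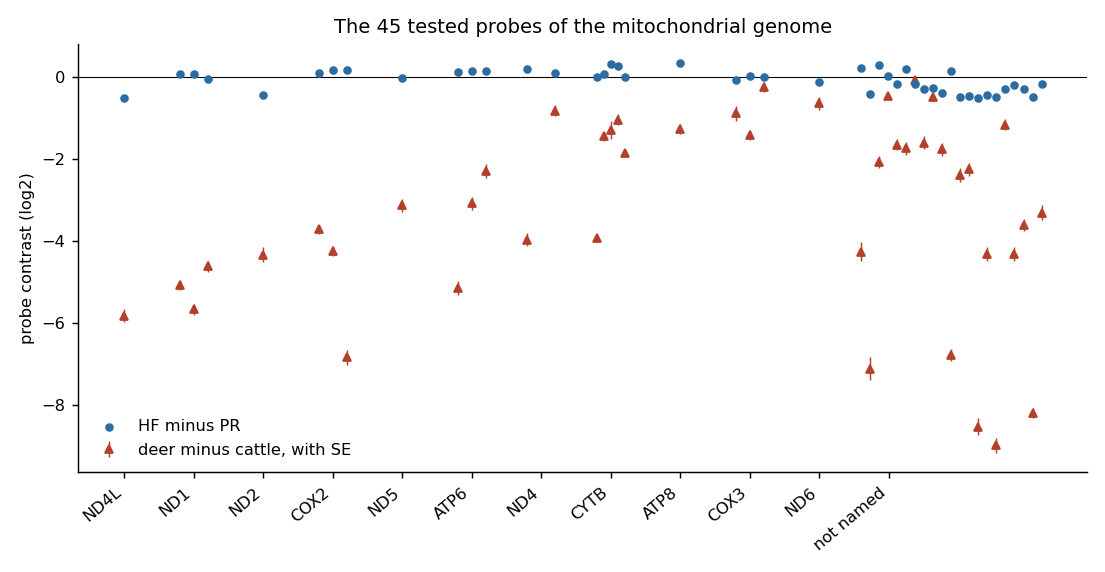
Contrast of each of the 45 tested mitochondrial probes on the log2 scale, by gene, with probes whose accession has no gene name at the right. Red triangles are deer minus cattle with the SE and blue points HF minus PR. The red triangles run from -8.99 to -0.08 and the blue points from -0.51 to 0.33.

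Over all probes, 9305 were higher (31.3%) and 9982 lower (33.6%) in deer. Over the 3127 genes, 1034 were higher (33.1%) and 1030 lower (32.9%), so that 66% passed in either direction. In bulk blood, fewer cells of a type and less RNA per cell cannot be told apart. Large contrasts leaned to the low side, as 59 genes were higher by at least 1 (1.89%) and 182 lower by at least 1 (5.82%). Among probes those counts were 1121 (3.77%) and 3157 (10.6%). HF minus PR on the same probes called 158 genes (5.05%). Apart from PR dry replicate 2, the PR arrays shared no slide and no scan day with HF arrays. Breed and slide are thus largely confounded too. The count was 0 without HF animals 2 and 3. On their arrays the spike-in probes correlated with their expected levels at only 0.17 to 0.40, and on PR dry replicate 1 at 0.33. The SD of probe contrasts was 0.83 between the species and 0.23 between the breeds. The balance between higher and lower moved with the scaling. The median probe contrast was 0.01 as reported, 0.23 on the log ratio of the scanner software, 0.22 after centring each array on its median, and -0.38 after centring on spike-in probes. Among called probes 48.2% were higher as reported, against 61.8%, 69.3% and 4.91% under those scalings. Under the spike-in centring only 14 probes passed higher and 271 lower, and its offsets ran from -4.63 to 2.88 on cattle arrays and from -0.75 to 0.17 on deer arrays.

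Probes of a gene agreed only in part. All probes had the same sign in 1287 genes (41.2%), and 973 genes (31.1%) had at least 1 probe that passed higher and 1 that passed lower. Between HF and PR the same shares were 34.1% and 1.69%. The share with probes passing both ways also rests on how many probes pass at all, which was 64.9% between the species and 10.5% between the breeds. The within-gene range of probe contrasts had a median of 0.80 between the species and 0.30 between the breeds. The intraclass correlation, the part of the variance of probe contrasts that lies between genes, was 0.34 and 0.23. The SD within genes was 0.69 and that between genes 0.49 for deer minus cattle. The share with one sign was 46.6% among 1917 genes with 3 probes and 21.7% among 60 genes with 7 or more. Such a share falls as probes are added even at equal agreement, so it does not compare agreement between these genes. In 596 genes (19.1%) the gene passed and every tested probe passed in its direction, 290 higher (9.27%) and 306 lower (9.79%). These are called unanimous here. The contrast averages the states and the breeds, so a unanimous gene will rarely change sign in 1 of these. In 595 of the 596 the sign was accordingly the same in each state and against each breed. For 294 of them (49.3%) no deer array overlapped any cattle array, while over all genes 273 deer-higher (8.73%) and 268 deer-lower genes (8.57%) did not overlap. The unanimous share was 46.2% of 26 genes whose probes all sit at 1 place and 17.3% of 2720 genes with 3 or more separate places at least 60 bases apart.

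**Figure D2:**
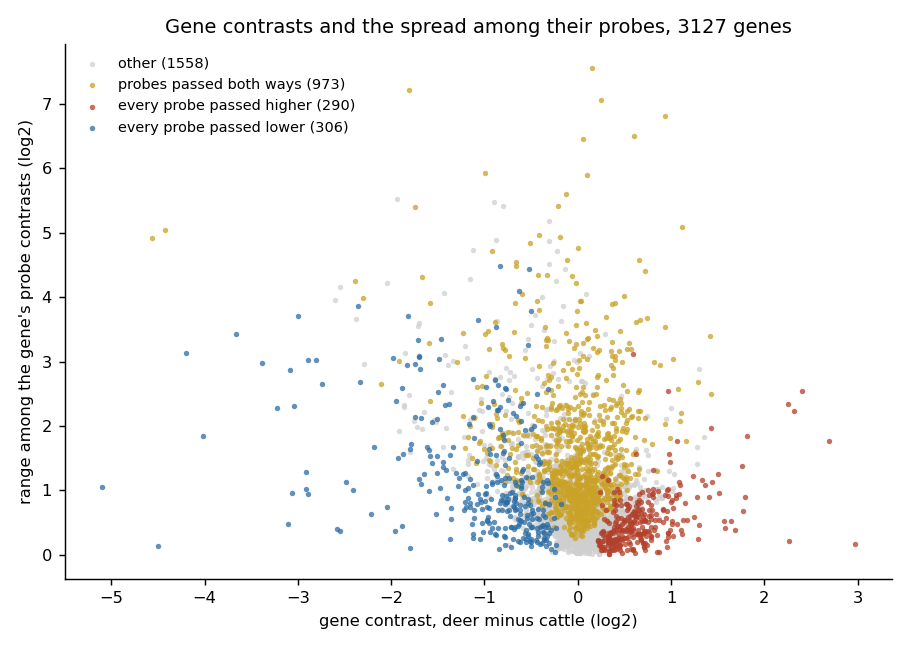
Each point is 1 of 3127 genes, with its deer minus cattle contrast (log2) on the horizontal axis and the range among the contrasts of its probes (log2) on the vertical axis. Red and blue mark the 290 and 306 unanimous genes and yellow the 973 genes with probes passing both ways, which lie around 0 with ranges up to over 7.

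Nearby probes agreed more closely than distant ones. Probe pairs of a gene that started within 20 bases of each other (580 pairs) differed by a median of 0.14 and had a Pearson r of 0.85. At 20 to 59 bases (430 pairs) the values were 0.25 and 0.65. From 60 bases to under 1 kb (3941 pairs), where probes no longer overlap, they were 0.41 and 0.37, and at 10 kb or more (4469 pairs) 0.39 and 0.21. For HF minus PR the median differences over these classes were 0.04, 0.06, 0.12 and 0.20, and r fell to 0.02 at the longest distance. The r values describe pairs that share arrays and base composition, and pairs of a gene are not independent. Among overlapping pairs, 294 with identical letters in the overlap differed by a median of 0.13 and 228 with 1 to 6 differing letters by 0.15. Differences over 1 made up 4.08% and 6.58% of them, and 0% of both between HF and PR.

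**Figure D3:**
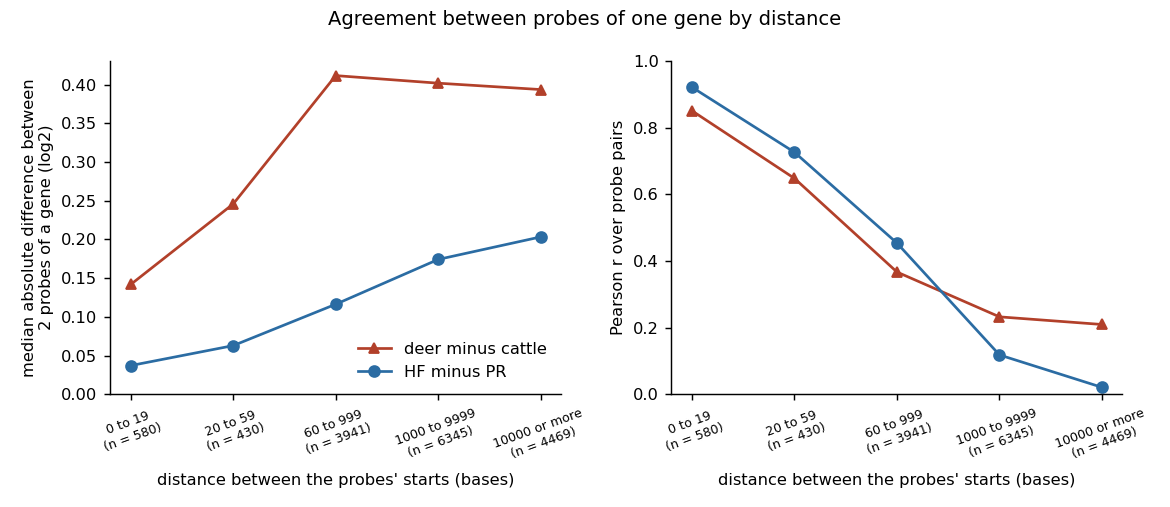
Left, median absolute difference (log2) between 2 probes of a gene. Right, Pearson r over the same pairs. Both are plotted by the distance between probe starts in bases, with red triangles for deer minus cattle and blue points for HF minus PR. The species difference rises from 0.14 to about 0.4 as soon as probes stop overlapping.

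The 12 largest contrasts among unanimous genes on the high side were those of AKR1C4, FTL, SHKBP1, MT2A, EIF4E, ZBTB38, IGF2R, ERO1A, IFI27, PECAM1, FAU and GNG2. AKR1C4 encodes an aldo-keto reductase that acts on steroids and other carbonyls. Its 3 probes lie on chromosome 13 between 43953502 and 43957155 (UMD 3.1). The deer arrays ran from 2.29 to 3.41 around a median of 3.23, and the cattle arrays from -0.83 to 0.92 around 0.01. All deer arrays stood above all cattle arrays, with a contrast of 2.97 (SE 0.19, limma adjusted p = 1.26e-11) and probes at 2.84 to 3.01. AKR1C4 belongs to a family of near copies, so its probes may read relatives.

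FTL encodes the ferritin light chain, part of the shell that stores iron. Its 5 probes lie on chromosome 18 between 55993418 and 55994739. Deer ranged from 1.26 to 2.82 (median 2.48) and cattle from -1.29 to 0.01 (median -0.26), without overlap. The lowest deer value was that of lactation replicate 4, apart from the other deer arrays. The contrast was 2.70 (SE 0.15, limma adjusted p = 1.47e-12). Of its probes 4 read 2.65 to 2.78 and the other, which starts only 13 bases from another, 1.02. FTH1, the ferritin heavy chain, was unanimous too, with 6 probes at 1.38 to 1.80. MT2A, a metallothionein that binds zinc and copper, ran from 1.52 to 3.04 in deer and from -0.37 to 0.41 in cattle. Its contrast was 2.32 (SE 0.15), with placed probes at 2.30 and 2.50 and an unplaced probe at 0.26. Metallothioneins are also a family of near copies.

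EIF4E encodes the protein that binds the cap of messenger RNA for translation. Its contrast was 2.26 (SE 0.17), with deer from 1.56 to 3.37 and cattle from -0.21 to 0.75. Its 3 probes read 2.23 to 2.44 but start within 21 bases of each other on chromosome 6 (27080680 to 27080760), so they are nearly 1 measurement. ZBTB38, a zinc finger protein that binds methylated DNA, had deer from 1.73 to 2.37 and cattle from -0.48 to 0.43. Its probes on chromosome 1 read 2.61 and 2.24 at 128532890 and 128533063, and 0.27 at 128535088. IGF2R, the receptor that carries mannose 6-phosphate enzymes to lysosomes and clears IGF2, ran from 0.79 to 2.00 in deer and from -0.54 to 0.07 in cattle, with probes at 2.06, 2.04 and 0.22. In both genes 1 probe was far below the other two, although each passed as higher.

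ERO1A, an oxidase of the endoplasmic reticulum that serves disulphide formation, read 1.32 to 2.21 on probes in 3 separate places. PECAM1, an adhesion molecule of platelets, leukocytes and endothelium, read 1.84, 0.69 and 2.07, and its deer arrays (0.87 to 2.03) stood above its cattle arrays (-0.43 to 0.14). IFI27, induced by interferon, ran from 0.21 to 2.11 in deer and from -1.56 to 0.06 in cattle, a narrow gap with a wide spread on both sides (contrast 1.77, SE 0.27, limma adjusted p = 6.76e-06). FAU, whose product holds ribosomal protein S30, read 1.40 to 1.80 on 4 probes, of which 3 lie within 52 bases on chromosome 29 and the last on chromosome 2. GNG2, a G protein gamma subunit, read 1.14 to 1.67. SHKBP1, which binds the adaptor SH3KBP1, read 3.25, 2.37 and 0.70.

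On the low side the 12 largest were ND1, DGAT2, COX2, NDUFA4, C5H12orf75, PYGL, FHL1, HP, ATP6, MINDY3, CLU and ST6GALNAC2. All 24 genes of both sides, which were chosen for their size on these arrays, had deer and cattle arrays that did not overlap. Among the genes named here, 1 deer array stood apart from the others in FTL, MED24, PGD, PYGL, TSC22D3 and ZBTB38, which is near the number that chance alone gives. DGAT2 encodes an enzyme that makes triglycerides. Its probes lie on chromosome 15 between 55972086 and 55973123 and read -4.44, -4.30 and -4.39. Deer ran from -5.86 to -4.26 (median -5.26) and cattle from -2.50 to 0.98 (median -0.74), for a contrast of -4.50 (SE 0.27, limma adjusted p = 4.16e-12). Its probes at both places agreed within 0.14, the closest agreement among the 12. NDUFA4, a nuclear gene for a subunit of cytochrome c oxidase, ran from -4.33 to -3.14 in deer and from -1.41 to 0.52 in cattle. Its contrast was -4.01 (SE 0.16), but its 3 probes start within 6 bases on chromosome 4 and still read -2.85, -4.68 and -4.02.

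HP encodes haptoglobin, which binds free haemoglobin and rises in inflammation. Its 3 probes lie on chromosome 18 between 39173512 and 39173840. Deer arrays ran from -4.27 to -2.97 (median -3.88) and cattle arrays from -1.96 to 1.06 (median -0.83). The contrast was -3.11 (SE 0.29, limma adjusted p = 3.72e-09), with probes at -3.46, -3.10 and -2.98 that do not overlap. FHL1, a LIM domain protein of muscle, was lower on all 5 of its probes on the X chromosome, at -4.80 to -2.52 in 5 separate places. MINDY3, a deubiquitinase, read -3.69 to -2.74 on probes in 3 separate places. HP, FHL1 and MINDY3 were thus low along the stretch their probes cover. DGAT2 and FHL1 had the largest breed contrasts among the 24, at 0.69 (SE 0.31) and -0.66 (SE 0.28) for HF minus PR. Neither passed (limma adjusted p = 0.186 and 0.161), and both were well under the species contrasts in size.

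CLU encodes clusterin, an extracellular chaperone that platelets store. Its 3 probes between 11060798 and 11061303 of chromosome 8 read as low as -3.33, and the probe at 11049528 read -1.03. PYGL, the liver form of glycogen phosphorylase, read -3.63 and -3.41 on overlapping probes and -0.65 on the other. C5H12orf75 read -3.86, -3.67 and -0.43, and ST6GALNAC2, a sialyltransferase, -4.29, -3.08 and -0.58. In these 4 genes 1 probe lay far nearer to 0 than the others, although it passed in the same direction.

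**Figure D4:**
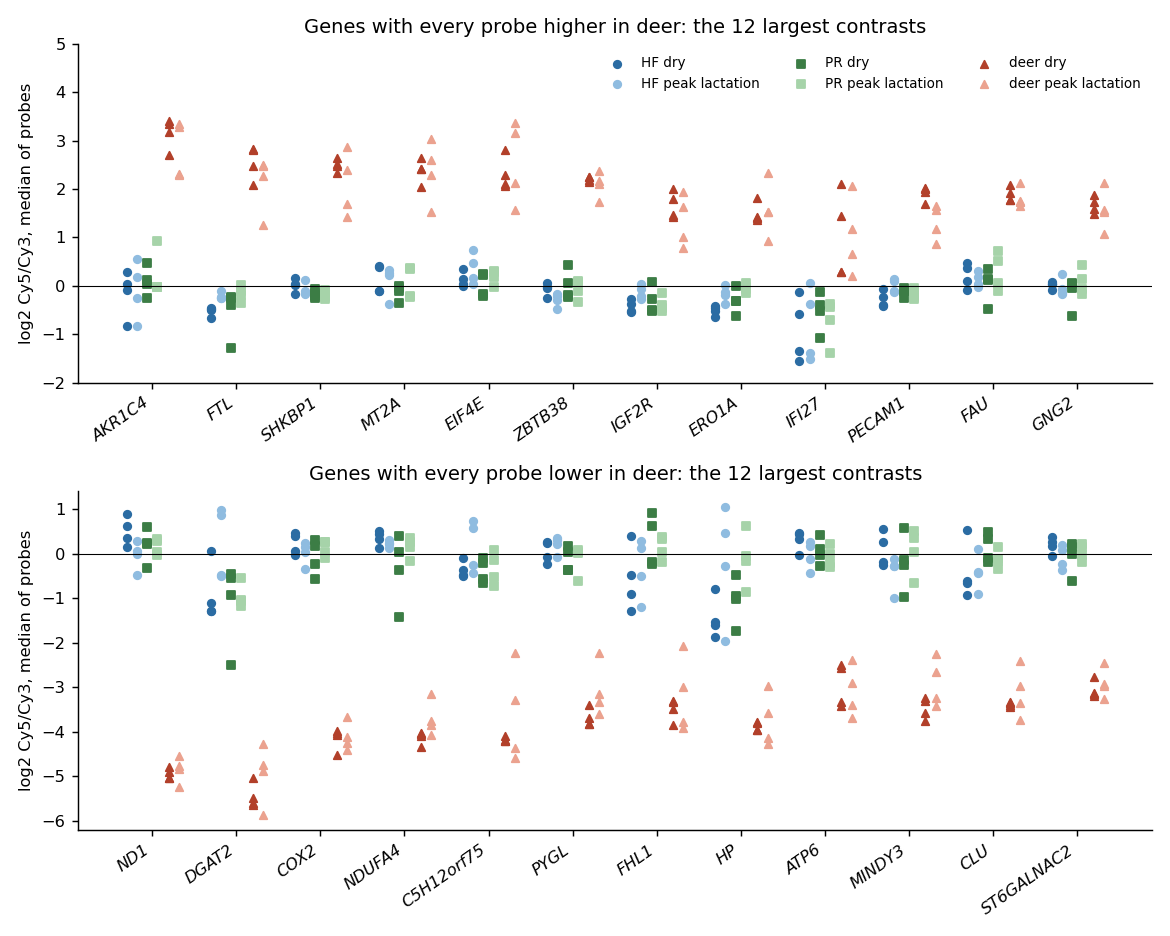
Gene level (median over tested probes of log2 Cy5/Cy3) on each of the 24 arrays for the 12 largest unanimous genes on each side. Circles are HF, squares PR and triangles deer, with dark marks for the dry period and light marks for peak lactation. All deer marks lie beyond all cattle marks in each of the 24 genes.

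Some genes had probes far apart in opposite directions. CD53, a tetraspanin of leukocytes, had the widest range among genes with probes passing both ways. Its probes on chromosome 3 read -7.21 at 32598494, 0.33 at 32598565 and 0.34 further on, and the gene contrast of 0.15 did not pass (limma adjusted p = 0.172). CD53 passed as higher with median centring (0.77, limma adjusted p = 0.000214) and on Cy5 alone (0.51, limma adjusted p = 0.000587). TSC22D3, a glucocorticoid-induced gene, read -6.04 on 1 probe and -0.03, 0.27 and 0.41 on the others. MPEG1, the pore protein perforin-2 of phagocytes, read -5.01 beside 0.53, 1.37 and 1.81. RPL9 read -5.35 and -1.53 beside 4 probes at 0.49 to 1.15, and RPL22L1 read -3.91, -2.10 and -1.53 beside 3.30. In CD53, TSC22D3 and MPEG1, the gene level follows the probes in the majority and 1 probe stands alone. GZMB, the cytotoxic protease granzyme B, split by place. Its probes on the plus strand of chromosome 21 near 35137652 to 35137838 read -1.87 and -4.09, and those on the minus strand at 35264550 to 35264649 read 2.96 and 2.41. Its gene contrast of 0.25 (SE 0.20) did not pass, and it turned to -1.88 (limma adjusted p = 2.45e-07) when overlapping probes were averaged first. GZMB passed as higher on the scanner log ratio (0.55, limma adjusted p = 0.0336), with median centring (0.61, limma adjusted p = 0.0191) and without deer lactation replicates 2 and 4 (0.48, limma adjusted p = 0.0418).

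The genes with the most tested probes were TCRA (13), IGF2 (12), BOLA (11), XIST (11) and CAST (10). TCRA, the alpha chain of the T cell receptor, is a locus of many segments, and its contrast was -0.34 (SE 0.07, limma adjusted p = 0.000255). Its deer arrays ran from -0.49 to -0.12 and its cattle arrays from -0.34 to 0.28, so they overlapped. With median centring it stood at -0.037 and did not pass (limma adjusted p = 0.787). Of its probes 8 passed lower and 1 higher, over a range from -2.78 to 0.47. BOLA, a name shared by several class I histocompatibility genes, had 5 probes higher and 3 lower, between -1.54 and 1.25. CAST, which encodes the calpain inhibitor calpastatin, had 8 probes lower and 0 higher, from -2.75 to -0.04, with a contrast of -0.74 (SE 0.08). XIST, the RNA that silences an X chromosome, had 6 lower and 1 higher, and its 2 probes at the same position read -2.13 and -2.08. IGF2, a fetal growth factor, had 4 probes higher, 0 lower and a contrast of 0.12 (SE 0.05, limma adjusted p = 0.0438). The IGF2 call was lost in 21 of 44 settings, among them the stricter filter (limma adjusted p = 0.123) and the omission of several single arrays.

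At the other end, the 408 genes (13%) whose probes all had 95% limits within 0.5 of 0 hold the readings that differed least. For 1602 genes (51.2%) the limits were within 1. The narrowest bounds were those of NRSN2, ZBTB7C, KAT5, CSRNP2, PLCL1 and KIAA0319L, whose largest limit over all probes was 0.13 to 0.17. KAT5 is a histone acetyltransferase. The called genes nearest to 0 were STK25, MED24, SDC4, CREB3L2, DNAJC11 and IFT122, at 0.09 to 0.10 in size with limma adjusted p from 0.0223 to 0.0499. These calls were often lost in other settings, from 8 of 42 for MED24 to 25 of 41 for SDC4 and 30 of 44 for STK25, with 19 of 43 for DNAJC11. The direction of CREB3L2, DNAJC11 and IFT122, and that of IGF2, turned under spike-in centring, and that of STK25 with median centring. Contrasts were smaller among dim probes. In the 5948 probes dimmest in Cy3 the SD of contrasts was 0.29 and in the 5947 brightest 1.22. Lower calls made up 11.2% and 44.5% of them.

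Heat shock and chaperone genes fold proteins and keep them soluble. Of 21 members with 3 or more probes 12 were higher in deer, 0 were lower and 9 did not pass, beside 33.1% and 32.9% of all genes, and the median contrast was 0.28, beside 0.01 over all genes. Of the 12, 8 were unanimous, and 4 of the 21 had probes passing both ways. HSPA8, the constant cytosolic form of HSP70, ran from 0.41 to 0.81 in deer (median 0.64) and from -0.76 to 0.07 in cattle (median -0.25), without overlap. Its contrast was 0.87 (SE 0.08, limma adjusted p = 1.66e-09), and its 6 probes read 0.47 to 1.00. DNAJA1, a partner of HSP70, ran from 0.58 to 0.80 in deer and from -0.54 to 0.37 in cattle, with 5 probes at 0.58 to 0.94. The probes of DNAJA1 are placed on 2 chromosomes. The list counted 15 higher and 0 lower on the scanner log ratio, 17 and 0 with median centring, 13 and 1 on Cy5 alone and 0 and 0 with spike-in centring. Its median stood 0.28 to 0.44 above that of all genes under each of these scalings.

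Genes of MHC class II present antigen to helper T cells. Of 8 members 6 were lower (75%) and 0 higher, beside 32.9% and 33.1% of all genes, with a median of -0.73. BOLA-DMB, a chaperone that loads peptides on class II molecules, ran from -1.68 to -1.15 in deer (median -1.54) and from -1.05 to -0.03 in cattle (median -0.27). The ranges did not overlap, and the contrast was -1.12 (SE 0.11, limma adjusted p = 6.01e-09) with probes at -1.20 to -0.94. LGMN, a lysosomal protease, had a contrast of -1.03 (SE 0.13), although its deer and cattle arrays overlapped. BOLA-DRA was unanimous at -0.62 with probes from -2.58 to -0.27. The other lower members, named after their values were seen, were CD74 (-0.84), BOLA-DRB3 (-0.86) and RFX5 (-0.21), each with probes of both signs. With median centring the list had 2 higher and 2 lower. Its median stayed at -0.90 to -0.42 relative to that of all genes under the same scalings as above. These loci are polymorphic and partly duplicated, and the part of sequence mismatch was not tested.

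The platelet and megakaryocyte list had 4 of 6 members lower (66.7%) and 0 higher, beside 32.9% and 33.1% of all genes, with a median of -0.58. Its only unanimous member was CLU. The other lower members, again named after their values were seen, were THBS1 (-1.87), F13A1 (-0.79) and VWF (-0.37). THBS1 and F13A1, a matrix protein and a clotting factor of platelets, had deer arrays that overlapped cattle arrays. The markers PF4 and ITGA2B had median log2 Cy5 signals of 13.9 and 8.01 in deer, against 15.1 and 10.3 in cattle, on their brightest probe. With spike-in centring no member passed. The cytokine, chemokine and NF-kappaB list had 4 higher (26.7%) and 9 lower (60%) of 15, with a median of -0.41. Its counts were 5 and 3 with median centring and 4 and 3 on Cy5 alone, so the lean in counts turned. Its median relative to all genes was -0.42 as reported and -0.14 on Cy5 alone. Unanimous members were IL1R1, a receptor of interleukin-1 (-0.75, SE 0.12), IL10RA, of the interleukin-10 receptor (0.37, SE 0.08), and IL1RAP, the accessory chain of the interleukin-1 receptor (0.42, SE 0.10).

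Other lists of immune and blood cells held members in both directions. Over all genes 33.1% were higher and 32.9% lower, which is the base for the counts of the lists from here on. Of 9 neutrophil and granule genes 2 were higher and 2 lower. MMP9, a protease of neutrophil granules, was higher by 0.98 (SE 0.16) and CHI3L1 by 0.91 (SE 0.18), both with overlapping arrays, and HP was lower. Of 8 monocyte genes 3 were higher and 3 lower. CSF1R, the receptor for macrophage growth factor, stood at 0.96 (SE 0.12), and CTSB, cathepsin B, at -1.11 (SE 0.11). The T cell list had 3 higher and 1 lower of 8, the natural killer and cytotoxic list 3 and 1 of 7, the B cell list 1 and 1 of 4, and the gamma delta T cell list 0 and 0 of 2. PRF1, perforin, stood at 0.59 (SE 0.18, limma adjusted p = 0.00531) with overlapping arrays. Eosinophil, basophil and mast cell genes had no member with 3 tested probes.

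Of 9 erythroid genes 4 were higher and 3 lower. HBG, a globin of a family of near copies, had the widest spread among the named genes. Its deer arrays ran from -4.86 to 0.68 (median -2.99) and its cattle arrays from -2.76 to 2.42 (median -0.55), so they overlapped. The contrast was -2.59 (SE 0.64, limma adjusted p = 0.00123), -1.18 in dry animals, which did not pass (limma adjusted p = 0.25), and -3.99 in lactating ones. The difference between the states did not pass (limma adjusted p = 0.41). PPOX, an enzyme of haem synthesis, stood at 0.67 (SE 0.08) and TFRC, the transferrin receptor, at 0.59 (SE 0.07), both without overlap. EPB42, of the red cell membrane, passed at -0.25 (limma adjusted p = 0.0281) but lost this call in 7 of 41 settings. Among them were array position as a factor (limma adjusted p = 0.121), median centring (0.073), and leaving out deer lactation replicate 3 (0.0525), deer animal 1 (0.0815) or deer animal 3 (0.0746).

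Interferon-stimulated genes had 5 higher and 5 lower of 11. TRIM5, a restriction factor, stood at -0.81 (SE 0.12) and did not pass on Cy5 alone (limma adjusted p = 0.0653). The pattern recognition list had 3 and 3 of 10, with TLR10 unanimous at -1.33 (SE 0.10) on 4 probes. TLR10 ran from -1.41 to -0.49 in deer and from -0.25 to 0.55 in cattle. MHC class I genes had 5 higher and 3 lower of 13, and 7 had probes passing both ways. TAP1, which pumps peptides for class I loading, stood at 0.66 (SE 0.08) without overlap, and FCGRT, the neonatal Fc receptor, at 0.47 (SE 0.12) with overlap. Complement and Fc receptor genes had 2 higher and 4 lower of 9. Adhesion genes had 6 and 6 of 19, with 10 mixed. Besides PECAM1, ITGAV stood at 0.62 and ITGA6 and CD82 at -0.72 and -0.79.

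Ribosomal protein genes showed how far probes can scatter within a pathway that acts as 1 machine. Of 52 cytosolic members 17 were higher (32.7%) and 18 lower (34.6%), which is the share of all genes, and 24 had probes passing both ways. RPL27, of the large subunit, ran from 1.16 to 1.99 in deer and from -1.01 to 0.22 in cattle, with probes at 1.15 to 2.10. RPS2, of the small subunit, ran from -1.95 to -1.24 in deer and from -0.51 to 0.28 in cattle, so its deer arrays lay below all cattle arrays. RPS2 had a contrast of -1.56 (SE 0.09) on 5 probes at -3.51 to -1.44. RPL27 at 1.52 (SE 0.12) and RPS2 thus parted by more than 3 on the log2 scale. These genes have many processed copies in the genome, which some probes may read. Median centring gave the list 34 higher and 8 lower. Mitochondrial ribosomal protein genes had 3 higher and 5 lower of 11, with MRPL43 at 0.56, MRPL45 at -0.71 and MRPL51 at -0.62.

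Respiratory chain genes had 10 higher (30.3%) and 13 lower (39.4%) of 33, near the 33.1% and 32.9% of all genes. The 5 mitochondrially encoded members were lower. Among nuclear members NDUFA4 was lower, while ATP5MC2 and ATP5MC1, which encode the same mature ring subunit of ATP synthase, stood at 0.71 (SE 0.09) and 0.61 (SE 0.11) without overlap. COX3 was lower at -0.58 as reported and turned to 0.19 (limma adjusted p = 0.303) with median centring. Translation factors had 12 higher (46.2%) and 6 lower (23.1%) of 26, with a median of 0.17. EIF4E led, and NACA, of the nascent chain complex, stood at 1.06 (SE 0.11). Spliceosome and RNA-binding genes had 12 and 8 of 34, proteasome genes 5 and 2 of 11, histone genes 6 and 2 of 11, with a median of 0.37, and cell cycle genes 6 and 5 of 19. SNRPE and RBM39, of splicing, stood at 0.72 and 0.47, HMGN1, a nucleosome-binding protein, at 0.64, and RFC3, MCM10 and MCM4, of DNA replication, at 0.69, 0.65 and -0.53. MCM10 did not pass on Cy5 alone (limma adjusted p = 0.082). Cytoskeletal genes had 11 and 5 of 28. TMSB4X, which binds actin monomers, ran from 0.92 to 1.80 in deer and from -0.32 to 0.91 in cattle, and TMSB10 from 0.69 to 1.13 and from -0.29 to 0.54.

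Glycolysis genes had 11 higher (52.4%) and 5 lower (23.8%) of 21, beside 33.1% and 32.9% of all genes, with a median of 0.16. LDHA, lactate dehydrogenase A, ran from 0.72 to 0.99 in deer and from -1.51 to 0.47 in cattle (contrast 1.06, SE 0.14). ALDOA, aldolase, stood at 0.85 (SE 0.15) and PGM2, a phosphopentomutase, at -1.13 (SE 0.15), both with overlap. The 3 probes of PGM2 are placed on 3 chromosomes. Fatty acid oxidation genes had 6 higher and 3 lower of 13. ACSL5, which activates fatty acids, stood at 1.29 (SE 0.11), HADHA, of mitochondrial beta-oxidation, at 0.75 (SE 0.09) and FABP3, a fatty acid carrier, at -1.16 (SE 0.14). Cholesterol genes had 4 and 5 of 10. NR1H3, liver X receptor alpha, ran from 0.32 to 0.76 in deer and from -1.09 to 0.18 in cattle, and stood at 1.02 (SE 0.08). ACAT2, a thiolase, stood at 1.01 (SE 0.09) and HMGCS1, of the mevalonate pathway, at -0.95 (SE 0.11).

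Antioxidant genes had 7 higher and 6 lower of 15. Besides FTL, MT2A and FTH1, the rule for naming gave PGD, of the pentose phosphate pathway, at -0.98 (SE 0.16), and SQSTM1, the autophagy receptor p62, at -0.52 (SE 0.11) with probes from -4.81 to -0.38. SQSTM1 did not pass on Cy5 alone (limma adjusted p = 0.669) or with median centring (limma adjusted p = 0.242). Immediate early and stress genes had 5 and 4 of 15, with DUSP1 at 1.11 (SE 0.28), BCL6 at 0.40 (SE 0.14), JUN at -0.78 (SE 0.16) and ZFP36L1 at -0.92 (SE 0.10), all with overlapping arrays. BCL6 did not pass without deer dry replicate 4 (limma adjusted p = 0.0531) or with array position as a factor (limma adjusted p = 0.0986). Milk genes had 2 higher and 2 lower of 7. DGAT1, the other triglyceride enzyme, stood at 0.54 (SE 0.08), in the opposite direction to DGAT2, and SCD, a desaturase, at -0.64 (SE 0.12) on 7 probes.

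**Figure D5:**
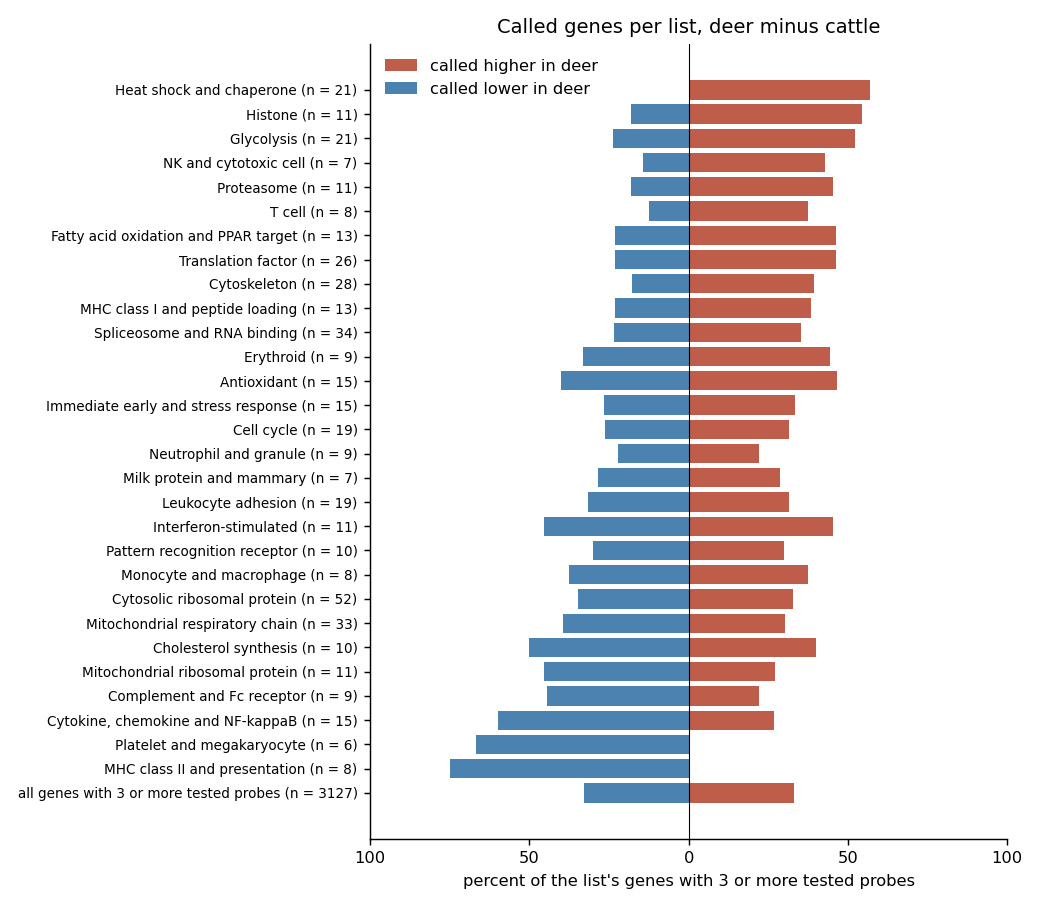
Percent of each list's genes with 3 or more tested probes that were called higher (red, to the right) and lower (blue, to the left) in deer, with the number of genes in parentheses and all 3127 genes at the bottom. Heat shock genes have no blue bar, and MHC class II and platelet genes have no red bar, beside 33.1% and 32.9% of all genes.

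Few genes passed for a difference of the species contrast between the states. Between dry animals 1828 genes passed (58.5%) and between lactating ones 1593 (50.9%). The difference of the contrasts between states passed in 3 genes (0.0959%) in limma with Benjamini-Hochberg adjustment and in 0 of 29736 probes, where 2962 probes had an unadjusted p under 0.05 (9.96%). The 3 genes, named after their values were seen, were FNDC3B, MAGEH1 and TPX2. FNDC3B stood at 1.37 in dry animals and 0.40 in lactating ones, MAGEH1 at -0.46 and 0.07, and TPX2 at -0.36 and 0.13. Leaving out deer animal 3 gave 11 such genes and leaving out deer animal 4 gave 0. Against each breed, 1928 genes passed for deer minus HF (61.7%) and 1944 for deer minus PR (62.2%), and these comparisons share the deer arrays.

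The Cy3 channel holds the same cattle pool on every array. Its normalized values also draw on the Cy5 signal of each spot, so a Cy3 difference between deer and cattle arrays is not free of the animals. There 4069 probes were higher (13.7%) and 187 lower (0.629%) on deer arrays (limma, Benjamini-Hochberg adjusted), with contrasts from -0.42 to 0.60 between the 1st and 99th percentiles. Without PR dry replicate 1, the bright array, 49.9% of probes passed. The probe contrasts of the ratio spanned -3.13 to 1.62 over the same percentiles, and the contrast of Cy5 alone had an r of 0.97 with them over 29736 probes that share arrays and spots. Probe composition moved with the contrast too. Among the 5948 probes with the lowest GC share 44.8% were lower in deer and the SD was 0.98, and among the 5947 with the highest 21.6% and 0.62. The part of these array and probe properties in the gene contrasts was not tested.

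Some probes were measured in only 1 species. Above background in cattle but not in deer by the rule were 1869 probes, and in deer but not in cattle 2277. Of 3378 genes with 3 or more probes above background in cattle, 2 had all probes not well above background on every deer array. ENPP1, which cleaves extracellular nucleotides, was at least 1.82-fold higher in cattle (4 probes) and GPM6A, a membrane glycoprotein of neurons, at least 1.72-fold (3 probes). These bounds set the cattle mean against the higher of the lowest measurable and the recorded deer signal, are open to dye bias and carry no test. Of 3351 genes above background in deer, 0 were dim in all probes on every cattle array. This 0 cannot be set against the 2, because PR dry replicate 1 had 42941 probes above background. Not 1 single probe of those genes was dim on every cattle array, while 183 probes were dim on every deer array. By the filter of the test instead, all probes fell below it in deer for 9 genes and in cattle for 13.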

How the data were processed

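Blood RNA was measured on 24 Agilent bovine arrays of 2 colours, and the 24 spot files were used. Per the file headers, the deposited intensity columns hold the mean brightness and local background of each spot, without normalization, as Agilent Feature Extraction gave them (10.7.3.1 in the submitters' processing notes, 10.10.1.1 in the headers). Per the file headers, a further column holds the log10 ratio of processed Cy5 over processed Cy3, which the software had detrended and dye-normalized. The authors' deposited tables of selected probes were not used here.

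From these, intensities were corrected with normexp (offset 50) and log2 Cy5/Cy3 was adjusted by loess within each array, with 1417 control spots and outlier spots at weight 0. Outlier spots were then left out (400 of 713664 values among tested probes), and the spots of a probe were averaged. The model in limma 3.58.1 (statmod 1.5.0, R 4.3.3) had 6 group means and the animal as a random block, with a within-animal correlation of 0.10 for probes and 0.09 for genes. The gene level was the median over its tested probes on each array. Calls are Benjamini-Hochberg adjusted p under 0.05 over all probes or genes tested, and the steps were tested on simulated data. Figures used matplotlib 3.10.9 in Python 3.11.15. Alternatives changed the filter, scaling, block, probe minimum, threshold and arrays.

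The series text says that each animal was bled in both states, and equal subject numbers within a breed were read as an animal. After removal of group means, arrays of an animal correlated above 0.1 in each of the 4 HF and 4 deer animals and in 2 of the 4 PR animals. Gene names come from the files, updated by symbol or accession through the RefSeq table of assembly ARS-UCD2.0, for 33879 of 43653 probes. In 50 genes the probes lie on 2 or more chromosomes. Places are those of the files on UMD 3.1, and exons or untranslated regions were not assigned. Members and the 32 gene lists were chosen with earlier results of these data known. Named genes are the 12 largest unanimous genes on each side with 1 sign in each state and against each breed, the 2 largest unanimous members on each side of each list, the 6 genes with the widest range among probes passing both ways, the 5 with the most probes, the 6 called genes nearest to 0 and the 6 with the narrowest bounds. Symbols that are LOC numbers or accessions were passed over, and 3 of the named genes are not reported here.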

Additional observations from a re-analysis of the deposited data

Results flagged for a closer look

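Among the 8 deer arrays, 1 value stood apart from the rest in 6 of the named genes, where chance alone gives such a gap in about 1 in 20 groups. As 102 of the named genes were carried through the alternative settings, these 6 among them are near that rate. FTL read 1.26 on deer lactation replicate 4, and the next deer value was 2.09. PYGL and ZBTB38 read -2.22 and 1.73 on deer lactation replicate 2, beside -3.15 and 2.11 on the nearest array. MED24 and TSC22D3 read -0.26 and 0.56 on deer lactation replicate 3. PGD read -0.36 on deer dry replicate 4, and the nearest value was -0.80. FTL, PYGL and ZBTB38 were still beyond all cattle arrays on those arrays.

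A difference of the species contrast between states passed in 3 genes and in 0 of 29736 probes (interaction term in limma, Benjamini-Hochberg adjusted). Over the alternative settings the count of genes ran from 0 to 11. The contrast at peak lactation minus that in the dry period was -0.97 for FNDC3B (SE 0.15, limma adjusted p = 0.00833), 0.53 for MAGEH1 (SE 0.10, limma adjusted p = 0.04996) and 0.49 for TPX2 (SE 0.10, limma adjusted p = 0.04996). None of the 3 had every probe passing in 1 direction for the species contrast over both states. FNDC3B, which encodes a membrane protein with fibronectin domains, had 4 probes higher and 1 lower in deer over both states.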

How the results depend on the processing

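The largest results kept their side under most alternatives. They were chosen for their size in these same data. Most alternatives only left out a few of the same arrays, so keeping their side is no separate support. The 24 largest unanimous genes gave 1020 comparisons of a gene with a setting, of which 1001 kept direction and call, 19 kept direction only, all under spike-in centring, and 0 turned. Of 596 unanimous genes 413 to 596 were shared with the alternatives that kept all arrays and genes, other than Cy5 alone (322), the 2-fold threshold (50) and spike-in centring (3), and 0 were opposite. Leaving out arrays or deer animals gave 8479 to 9583 higher and 9218 to 10468 lower probes, 953 to 1046 higher and 946 to 1113 lower genes, 250 to 316 and 259 to 340 unanimous, 836 to 1044 mixed, 43 to 44 mitochondrial probes lower, 1668 to 1906 genes in the dry period, 1305 to 1726 at peak lactation, 0 to 11 for the difference of states, 1787 to 2038 against HF, 1794 to 2001 against PR, 73 to 344 for HF minus PR (highest without PR dry replicate 2, lowest without HF dry replicate 2) and 1948 to 14840 Cy3 probes. One-sign genes stayed at 40.4% to 41.8% and the intraclass correlation at 0.33 to 0.34.

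Without the replicate block of the animal, 1049 genes were higher and 1050 lower, and the difference of states passed in 1 gene, as with slide as a random block. The scan day as a random block, chosen after seeing the data, gave 340 genes for HF minus PR and 1 for the difference of states. Means per animal gave 87 for HF minus PR. Pairing moved no other count by over 1.5 times.

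Scaling moved counts most. The scanner log ratio gave 14017 higher probes, 572 unanimous higher genes and 6 for the difference of states. Median centring gave 14894 and 6587 probes, 1605 and 576 genes, 678 and 124 unanimous, 798 for HF minus PR and 1 for the difference of states. Spike-in centring gave 14 and 271 probes, 0 and 7 genes, 0 and 3 unanimous, 0 mixed, 19 mitochondrial probes, 4 and 3 genes in the dry period and lactation, 0 for the difference of states, 108 and 0 against HF and PR, and 3127 for HF minus PR. Its within-group offsets reach -4.63, so its counts carry that spread. Cy5 alone gave 656 lower genes, 122 unanimous lower, 17 for HF minus PR and 0 for the difference of states.

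The minimum of 5 probes tested fewer genes and gave 145 higher, 115 lower, 27 and 17 unanimous, 192 mixed, 231 and 200 in the states, 1 for their difference, and 244, 253 and 17 against HF, PR and between breeds. The 2-fold threshold gave 1121 and 3157 probes, 59 and 182 genes, 14 and 36 unanimous, 49 mixed, 281 and 216 in the states, 252 and 246 against HF and PR, and 0 for the breeds and for the difference of states. Array position as a factor gave 0 for the difference of states and 1326 Cy3 probes. Without HF animals 2 and 3 these were 0 and 1933, and HF minus PR gave 0, and without deer lactation replicates 2 and 4 they were 0 and 1766. The stricter filter also gave 0 for the difference of states. Genes that turned were COX3 (0.19) and STK25 (0.022) with median centring, CREB3L2 (-0.44), DNAJC11 (-0.32), IFT122 (-0.36) and IGF2 (-0.11) with spike-in centring, and GZMB (-1.88) with overlapping probes averaged. Causes were not tested. Probes near background limit what can be seen, as contrasts there are small.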
